A study of Mus musculus with 18 samples.

Results

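A set of 6 mast cell genes was followed across epididymal white adipose tissue (eWAT) of male mice: Cma1, Cpa3, Mcpt4 and Tpsb2, which encode proteases of the secretory granule, the receptor gene Kit, and Hdc, the enzyme of histamine synthesis. They were chosen by symbol as known mast cell genes, with the let-7e against control comparison of these same libraries in view, and all 6 are among the 16452 genes of the count table. Transcripts were measured by RNA sequencing of whole fat pads from wild-type C57BL/6 males of the generation called Fm. Their labels give a chow diet to week 6, LFD until week 15 and an age of 24 weeks, which are not reconciled. The groups differ in what was microinjected into the zygotes from which the Fm males were sired: a negative control (5 libraries), miR-let-7d (6) or miR-let-7e (6). The treatment labels of all 3 groups begin with IVF, so the controls carry that step too. Control replicate 5 is not analysed here. Since the labels do not say that replicates are separate animals, p-values measure only the spread between these samples. The values here are gene transcript counts, and the level of the microRNA in these fat pads is not analysed here.

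Mast cells mature in tissues under Kit ligand, and store proteases, histamine and heparin in granules that are released when the IgE receptor is crosslinked. In connective tissue, fat pads included, mature mouse mast cells carry a set of chymases, tryptases and carboxypeptidase A3 that few other cells make. Kit and Hdc are shared more widely: Kit also marks melanocytes, germ cells and some epithelia, and Hdc is made in basophils and in certain epithelial and nerve cells.

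The injected microRNAs are shown because the groups are defined by them. In the mature sequences, taken from RefSeq (GRCm38.p6), capitals mark the seed, bases 2 to 8, which sets most of the pairing with target RNAs.
let-7d-5p: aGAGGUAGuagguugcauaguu
let-7e-5p: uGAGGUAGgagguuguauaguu
Both carry the seed GAGGUAG and differ at 3 of 22 bases outside it. The DNA letters that pair with this seed, CTACCTC, were found in the annotated 3′ UTR of 0 of the 6 mast cell genes. In the same search 1569 of 14211 genes, 11%, held at least 1 match. A match is a description of letters and not a target site, and its absence says only that these letters are not in these annotated transcripts.

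In the 17 libraries, total counts ran from 12717365 to 28972306. The tissue label held: the fat cell genes Fabp4 and Adipoq averaged 15330 and 3156 CPM, a unit that gives a gene's read count relative to all reads counted in its library. In the labels, the sample identifiers are plain numbers for replicates 1 and 2 of each injected group, a series called early here. They begin with a letter for the other 13 libraries, all controls among them, a series called late here. The names early and late are chosen here, and the labels give no order in time. What these series stand for is not stated. A set of 4 libraries stood apart by transcripts of other tissues. Control 3 reached 26740 CPM over 6 of 6 measured vas deferens, epididymis and smooth muscle markers, against at most 308 CPM in any other library. Control 6 reached 1066 CPM over 5 of 5 spermatid markers, against at most 55.5 CPM elsewhere. The summed level of 4 epithelial markers (Cdh16, Cldn2, Foxj1, Epcam) was 392 CPM in let-7d 1, 171 CPM in let-7d 5 and 100.2 CPM in control 3, with at most 28.3 CPM in the other libraries. Results are given with all libraries and, where they move, without control 3, control 6, let-7d 1 and let-7d 5.

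The 4 protease transcripts were all low and all lowest in let-7e 5. Levels are CPM scaled between libraries with TMM, and counts behind them ran from 18 reads (Cma1, let-7e 5) to 365 reads (Tpsb2, control 6). In whole tissue, fewer mast cells and less RNA per mast cell cannot be told apart.

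Cma1 encodes mast cell protease 5, a chymase-family enzyme (ENSMUSG00000022225.7, GRCm38 chr14:55941451-55944675, minus strand). Its levels in controls 1, 2, 3, 4 and 6 were 4.35, 3.51, 10.5, 6.45 and 9.74 CPM. Among let-7d libraries it ran from 1.997 over a median of 3.64 to 6.23 CPM, and among let-7e libraries from 0.761 over 4.43 to 5.61 CPM. Controls 3 and 6 exceeded every injected library, whereas controls 1 and 2 lay inside the range of both injected groups, so the groups overlapped. Group means were 6.91 ± 3.12 (SD, n = 5) in controls, 3.76 ± 1.41 (n = 6) with let-7d and 3.94 ± 1.92 CPM (n = 6) with let-7e.

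Mcpt4 encodes a further chymase of connective tissue mast cells and lies in the same protease cluster (ENSMUSG00000061068.7, chr14:56059629-56062313, minus strand). It measured 4.41, 4.62, 10.8, 6.89 and 6.87 CPM in controls 1, 2, 3, 4 and 6. It ran from 3.46 over 4.79 to 8.71 CPM with let-7d, and from 1.23 over 4.99 to 8.68 CPM with let-7e. Only control 3 lay above both injected groups, and let-7d 2 and let-7e 4 came next. The means were 6.73 ± 2.58, 5.16 ± 1.90 and 5.04 ± 2.92 CPM for control, let-7d and let-7e.

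Tpsb2 encodes a tryptase, a protease held in the granule on heparin (ENSMUSG00000033825.10, chr17:25366305-25369098, plus strand). Controls 1, 2, 3, 4 and 6 held 6.70, 6.64, 12.03, 10.9 and 14.9 CPM. The let-7d libraries ran from 3.81 over 5.70 to 9.70 CPM and the let-7e libraries from 0.973 over 6.53 to 11.3 CPM. Controls 3 and 6 were again above every injected library, and let-7e 4 lay above controls 1, 2 and 4. The means were 10.3 ± 3.58 in controls, 6.04 ± 2.18 with let-7d and 6.37 ± 3.75 CPM with let-7e. Tpsb2 and Tpsab1 are near copies of each other, and how reads shared between copies were counted is not given in the sources used here, so the split between them is uncertain.

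Cpa3 encodes carboxypeptidase A3, which trims peptides from their carboxyl end (ENSMUSG00000001865.2, chr3:20215620-20242181, minus strand). Controls 1, 2, 3, 4 and 6 held 4.58, 3.13, 4.83, 4.86 and 4.62 CPM, so that 4 of 5 lay close together and control 2 below them. The let-7d libraries ran from 1.68 over 2.99 to 4.38 CPM and the let-7e libraries from 0.973 over 2.86 to 4.86 CPM. Here control 3 and control 6 did not stand above the other controls, in contrast to Cma1 and Tpsb2. The means were 4.41 ± 0.724, 2.99 ± 0.871 and 2.96 ± 1.46 CPM.

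Kit encodes the receptor tyrosine kinase for Kit ligand (ENSMUSG00000005672.12, chr5:75574916-75656722, plus strand). Controls 1, 2, 3, 4 and 6 held 14.5, 22.9, 18.6, 19.4 and 12.03 CPM. The let-7d libraries ran from 18.9 over 22.96 to 57.5 CPM and the let-7e libraries from 16.2 over 17.8 to 37.6 CPM. The highest values were let-7d 1 and let-7e 1, and all other libraries lay between 12.03 and 23.7 CPM. The means were 17.5 ± 4.26, 27.7 ± 14.7 and 20.9 ± 8.26 CPM.

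Hdc encodes histidine decarboxylase (ENSMUSG00000027360.5, chr2:126593667-126619299, minus strand). It held 1.60, 2.55, 2.43, 3.05 and 4.05 CPM in controls 1, 2, 3, 4 and 6. It ran from 1.95 over 2.94 to 31.6 CPM with let-7d and from 1.65 over 2.19 to 4.59 CPM with let-7e. Let-7d 1 at 31.6 and let-7d 5 at 10.7 CPM stood above every other library, none of which passed 4.59 CPM. The means were 2.74 ± 0.899, 8.82 ± 11.6 and 2.56 ± 1.08 CPM.

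**Figure D1:**
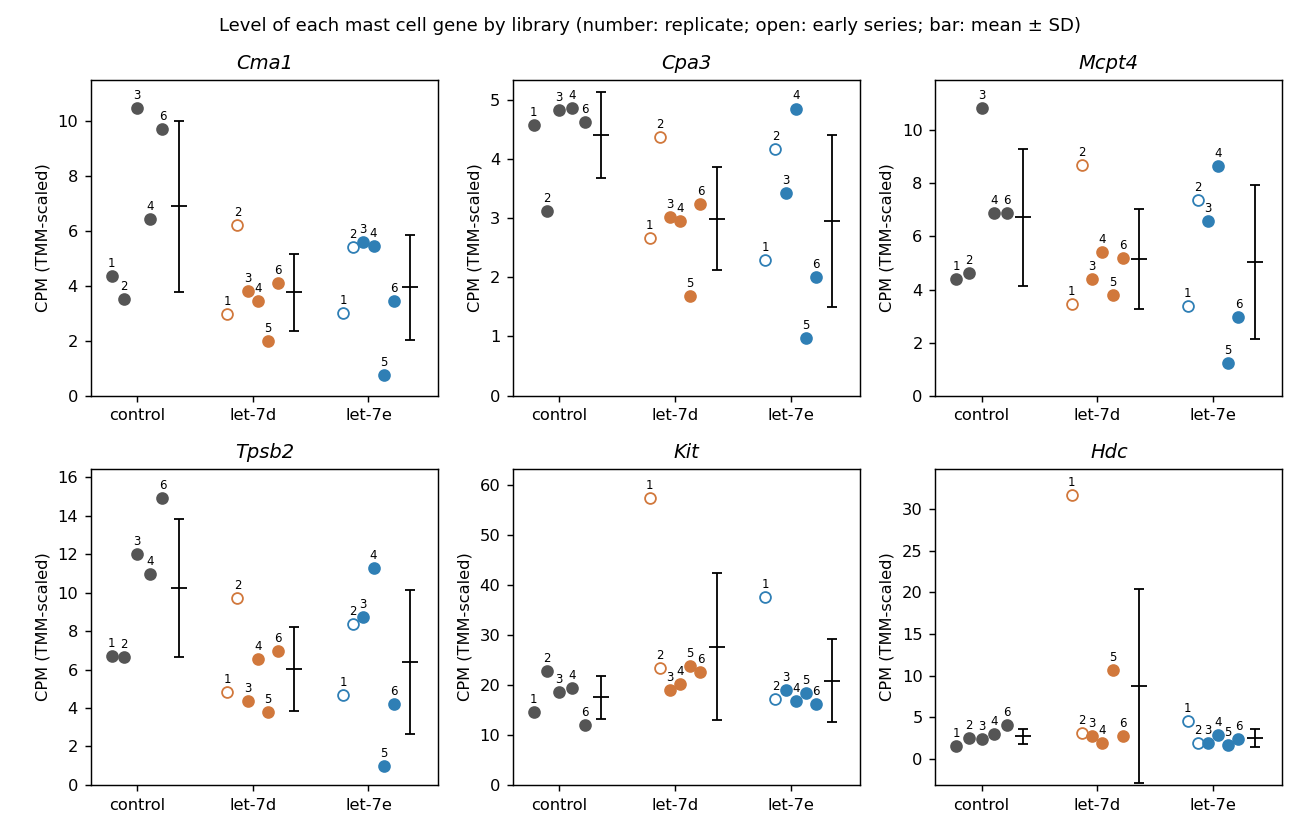
Each panel plots 1 gene, with the library's level in TMM-scaled CPM on the y axis and the group on the x axis. Points are libraries numbered by replicate, open points are the early series, and the bar is the mean ± SD. Let-7e 5 is lowest in the 4 protease panels (0.761 to 1.23 CPM), whereas let-7d 1 tops the Kit and Hdc panels (57.5 and 31.6 CPM).

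Per kilobase of the longest coding transcript, the order of control means was Tpsb2 (7.95 ± 2.78 CPM per kb), Cma1 (6.33 ± 2.86), Mcpt4 (6.07 ± 2.33), Kit (3.34 ± 0.812), Cpa3 (3.04 ± 0.500) and Hdc (1.14 ± 0.376). The 3 highest neighbours differed by less than their SD, as did Kit and Cpa3, while Hdc lay below the range of Cpa3 in the controls (0.671 to 1.69 against 2.16 to 3.35 CPM per kb). Over single libraries, Tpsb2 was first of the 6 in 9 of 17 and Hdc last in 13 of 17. The level of Kit per kb depends on the transcript chosen: over the length of all annotated exons it was 1.96 ± 0.478 CPM per kb in controls.

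The proteases rose and fell together from fat pad to fat pad. Over the 17 libraries the 6 pairs among Cma1, Cpa3, Mcpt4 and Tpsb2 had Pearson r of log2 CPM from 0.907 to 0.958 and Spearman rho from 0.858 to 0.941. The largest p of these r, in a two-sided permutation test adjusted over the 15 pairs of the 6 genes, was 2.5e-05, and the unadjusted p of 1e-05 is the smallest that 100000 permutations can give. The choice of genes used group means, so the pairs were also read as deviations from the mean of each library's group, where r ran from 0.899 to 0.949. Within the 13 late libraries r was 0.901 to 0.955, and without the 2 libraries farthest from the median of the pair's first gene it was 0.783 to 0.923. Leaving out each library in turn, the lowest r was 0.827, for Cpa3 and Mcpt4 without let-7e 5. The points share library depth and scaling.

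Over the 17 libraries Kit and Hdc did not go with the proteases, so the 6 genes did not vary as 1 group. Their 8 pairs with the proteases had r from -0.315 to -0.06, and the smallest adjusted permutation p was 0.381. Without the 4 libraries that stood apart, the pairs with Hdc turned positive, with r from 0.170 to 0.292. Those with Kit lay between -0.162 and -0.02, and the smallest adjusted permutation p of the 8 pairs was then 0.553. The r of Kit with Hdc was 0.745 (adjusted permutation p = 0.0106) and rho was 0.561 (adjusted permutation p = 0.0441). This relation rested on few libraries: r was 0.273 without the 2 libraries farthest from the median of Kit, 0.389 without let-7d 1 and 0.244 within the late libraries. It was 0.762 without the 4 libraries that stood apart, a set that still holds let-7e 1.

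**Figure D2:**
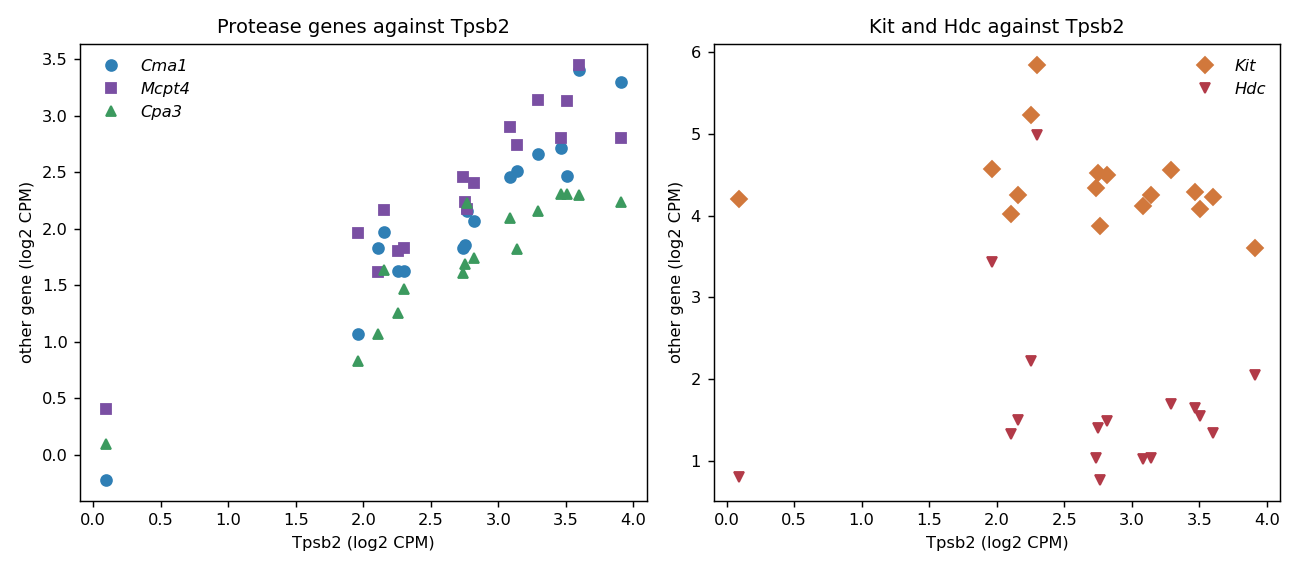
Each point is 1 library, with log2 CPM of Tpsb2 on the x axis and log2 CPM of another gene on the y axis. At left, Cma1, Mcpt4 and Cpa3 climb with Tpsb2, with let-7e 5 alone at the lower left. At right, Kit and Hdc show no such climb, and the r of their pairs with the 4 proteases lay between -0.315 and -0.06.

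Summed over the 4 protease genes, levels ran from 3.93 CPM (let-7e 5, 93 reads) to 38.2 CPM (control 3, 1145 reads). The next highest were control 6 (36.2), let-7e 4 (30.3), control 4 (29.2) and let-7d 2 (29.0 CPM), so every group had a library among the highest 5. Group means of the sum were 28.3 ± 9.16, 17.9 ± 6.18 and 18.3 ± 9.91 CPM for control, let-7d and let-7e. The proportions of the proteases also moved. For these shares, each level was divided by the length of the longest coding transcript before the 4 genes were summed. The share of Tpsb2 in this length-scaled sum lay between 23.3% and 38.7%, and that of Mcpt4 between 20.7% and 36.6%. That of Cma1 lay between 19.5% and 30.2%. That of Cpa3 lay between 10.4% (control 3, the highest CPM sum) and 20.8% (let-7e 5, the lowest). Cpa3 spanned the narrowest range of levels, 4.995-fold from lowest to highest library, and Tpsb2 the widest of the proteases, 15.3-fold. In let-7e 5 the counts were 18 reads for Cma1, 23 for Cpa3, 29 for Mcpt4 and 23 for Tpsb2. Exact Poisson 95% limits there, which cover counting error only, were 0.451 to 1.20 CPM for Cma1 and 0.617 to 1.46 CPM for Tpsb2. The upper limits stayed below the lowest level in any other library for these genes, 1.997 CPM for Cma1 and 3.81 CPM for Tpsb2, both in let-7d 5.

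Because the proteases moved together, the DNA before their transcription starts is shown, with that of Hdc and Kit beside it. Each line gives the 250 bases upstream of the RefSeq start in GRCm38.p6, 5′ to 3′ on the gene's strand, with words of the GATA motif in capitals; GATA factors are known regulators of mast cell genes. The windows with a match are chr14:55944676-55944925 (Cma1, minus strand), chr3:20242182-20242431 (Cpa3, minus), chr14:56062311-56062560 (Mcpt4, minus) and chr2:126618679-126618928 (Hdc, minus). The window of Kit is chr5:75574737-75574986 (plus strand, the first of its listed starts). The RefSeq starts used for Hdc, Kit and Mcpt4 lie inside the gene coordinates printed above. The window of Hdc therefore lies wholly within those coordinates, and those of Kit and Mcpt4 lie partly within them.
Cma1: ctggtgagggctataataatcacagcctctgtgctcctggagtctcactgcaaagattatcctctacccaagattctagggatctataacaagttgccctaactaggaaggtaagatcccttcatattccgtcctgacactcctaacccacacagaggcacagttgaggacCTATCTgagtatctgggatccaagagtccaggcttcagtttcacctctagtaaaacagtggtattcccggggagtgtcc
Cpa3: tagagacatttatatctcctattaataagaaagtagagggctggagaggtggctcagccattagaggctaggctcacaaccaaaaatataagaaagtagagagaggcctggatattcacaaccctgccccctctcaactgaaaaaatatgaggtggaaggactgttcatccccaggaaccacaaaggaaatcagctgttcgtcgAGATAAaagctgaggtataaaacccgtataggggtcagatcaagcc
Mcpt4: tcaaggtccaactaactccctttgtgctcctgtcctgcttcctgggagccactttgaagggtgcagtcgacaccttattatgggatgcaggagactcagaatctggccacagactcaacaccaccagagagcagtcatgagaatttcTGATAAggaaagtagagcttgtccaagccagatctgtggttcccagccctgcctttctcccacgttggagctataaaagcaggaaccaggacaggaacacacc
Hdc: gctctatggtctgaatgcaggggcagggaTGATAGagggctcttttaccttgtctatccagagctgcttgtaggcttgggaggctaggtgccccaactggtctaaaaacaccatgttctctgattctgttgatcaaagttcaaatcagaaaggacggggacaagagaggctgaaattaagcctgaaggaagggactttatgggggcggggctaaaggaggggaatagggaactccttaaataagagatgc
Kit: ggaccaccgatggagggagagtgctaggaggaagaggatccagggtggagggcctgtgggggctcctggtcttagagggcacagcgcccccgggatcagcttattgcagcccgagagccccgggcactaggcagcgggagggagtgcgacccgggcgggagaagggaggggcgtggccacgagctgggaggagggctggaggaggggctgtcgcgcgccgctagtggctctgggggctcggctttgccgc
Promoter entries matched 5 of the 6 genes, and Tpsb2 is named only. On both strands TGATAA was searched, with TGATAG as its variant, and likewise AGATAA, with the variant AGATAG. Counted back from the start, 1 match lay at bases -79 to -74 in Cma1 (on the opposite strand, so it reads CTATCT), at -46 to -41 in Cpa3, at -103 to -98 in Mcpt4 and at -221 to -216 in Hdc. Neither listed start of Kit had a match. Of 32851 RefSeq windows of this length, 26.5% hold at least 1 of these words. The word TATAAA, searched on the gene's strand and found in 7.59% of windows, lay at -31 to -26 in Cpa3 and at -32 to -27 in Mcpt4. The E-box words CATGTG and CACGTG, bound by MITF, were in 0 windows of the 5 genes and in 17.6% of all windows. These are letter matches and not binding sites. The window of Kit was richer in G and C (70.8%) than those of the other 4 (44.4% to 51.2%).

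In let-7d against control, the fitted levels of the 4 proteases were lower and those of Kit and Hdc higher, and no gene passed. The fit was edgeR's quasi-likelihood test on all 17 libraries with group and series as terms, adjusted over 16452 genes at 0.05. It called 0 of the 6 genes, against 0% of all genes, with a smallest adjusted p of 0.456 over the whole table. Log2 fold changes were -0.99 for Cma1 (SE 0.458, adjusted p = 0.482), -0.86 for Tpsb2 (SE 0.474, 0.543), -0.66 for Cpa3 (SE 0.353, 0.536) and -0.48 for Mcpt4 (SE 0.439, 0.711). Kit was at 0.33 (SE 0.243, adjusted p = 0.644) and Hdc at 0.97 (SE 0.599, adjusted p = 0.581). The 95% interval for Cma1 ran from -1.97 to -0.02, while those of the other 5 genes included 0. The same 5 controls were in view when the genes were chosen, so these p-values and intervals are not those of an independent test. At an unadjusted p under 0.05, edgeR's test called Cma1 alone of these genes (unadjusted p = 0.0459) and 10.2% of all genes. Levels of control and let-7d did not separate for any of the 6 genes, while 0.517% of all genes had groups that do not overlap. The median of the 6 was -0.57 against -0.04 over all genes, and 4 of 6 lay below 0, as did 57.5% of all genes.

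These fitted differences moved when the libraries that stood apart were left out. Without control 3, control 6, let-7d 1 and let-7d 5, Cma1 was at -0.21 (SE 0.499), Tpsb2 at -0.32 (SE 0.570), Cpa3 at -0.38 (SE 0.424) and Mcpt4 at 0.04 (SE 0.515). Hdc was then at 0.02 and Kit at 0.05, and the median of the 6 was -0.09. The mean of Cma1 in the 3 remaining controls was 4.77 ± 1.52 CPM, against 4.4 ± 1.25 CPM in the 4 remaining let-7d libraries. The 2 control libraries taken out hold vas deferens or spermatid transcripts and are also the 2 with the highest protease sums. The 2 let-7d libraries taken out have the lowest protease sums of their group (11.3 CPM in let-7d 5, 13.9 CPM in let-7d 1), so the exclusion removed the top of one group and the bottom of the other. The part of those transcripts in the result was not tested.

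In let-7e against control the values are a description, since the genes were chosen with this comparison known. The fitted log2 fold changes were -0.91 for Cma1 (SE 0.450), -0.77 for Tpsb2 (SE 0.464), -0.67 for Cpa3 (SE 0.350) and -0.51 for Mcpt4 (SE 0.434). Kit was at -0.04 (SE 0.240) and Hdc at -0.53 (SE 0.567). The group means of Hdc lay close together, at 2.74 ± 0.899 CPM in controls and 2.56 ± 1.08 CPM with let-7e. The fitted value of Hdc also depends on the series term, which is fitted over all 3 groups. That term was 1.31 for Hdc with all libraries and 0.19 without let-7d 1, a library of neither group compared here. The adjusted threshold called 0 of the 6 and 0% of all genes, and all 6 values lay below 0, as did 58.1% of all genes. Levels overlapped for all 6 genes, whereas 0.632% of genes had groups that do not overlap. The median was -0.60, against -0.04 over all genes. Let-7e 5 weighed on these values: without it Cma1 was at -0.65 and Tpsb2 at -0.49. Other single libraries moved them too: without let-7e 4 Tpsb2 was at -1.12 and Mcpt4 at -0.85. Without control 3 Mcpt4 was at -0.25, and without let-7d 1 Hdc was at -0.16. Without the 4 libraries named above, Cma1 was at -0.38 (SE 0.464) and Tpsb2 at -0.43 (SE 0.526). Mcpt4 was then at -0.19 (SE 0.478), while Cpa3 moved less, to -0.59 (SE 0.396). T and B cell markers lay lower as well, with 0 of 8 called: 8 of 8 were fitted below 0 with let-7e (median -0.97) and 7 of 8 with let-7d (median -0.46). Their summed level ran from 8.53 over 18.9 to 38.3 CPM in controls, from 7.24 over 11.3 to 50.5 CPM with let-7d and from 6.36 over 12 to 17 CPM with let-7e, and their part in the protease values was not tested. This comparison and the one with let-7d share the 5 controls, so their similar protease values are not independent.

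Between the injected groups, let-7e against let-7d, the proteases were close to 0 in log2 fold change. edgeR gave 0.08 for Cma1 (95% interval -0.79 to 0.95), -0.01 for Cpa3 (-0.69 to 0.67), -0.03 for Mcpt4 (-0.86 to 0.81) and 0.09 for Tpsb2 (-0.81 to 0.99). These intervals still allow differences of close to 1 on the log2 scale in either direction. Hdc was at -1.50 (SE 0.541, edgeR adjusted p = 0.700, unadjusted p = 0.0138), and Kit was at -0.37 (SE 0.218, adjusted p = 0.774). The adjusted test called 0 of the 6 and 0% of all genes, and at an unadjusted p under 0.05 it called Hdc alone of the 6 and 6.67% of all genes. Hdc was at -0.78 without let-7d 1 and at -0.10 (SE 0.279) without the 4 libraries that stood apart. Levels of let-7e and let-7d overlapped for all 6 genes, while 0.237% of all genes had groups that do not overlap in this comparison. The median of the 6 was -0.02, against -0.01 over all genes, and 4 of 6 lay below 0, as did 53.1% of all genes.

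**Figure D3:**
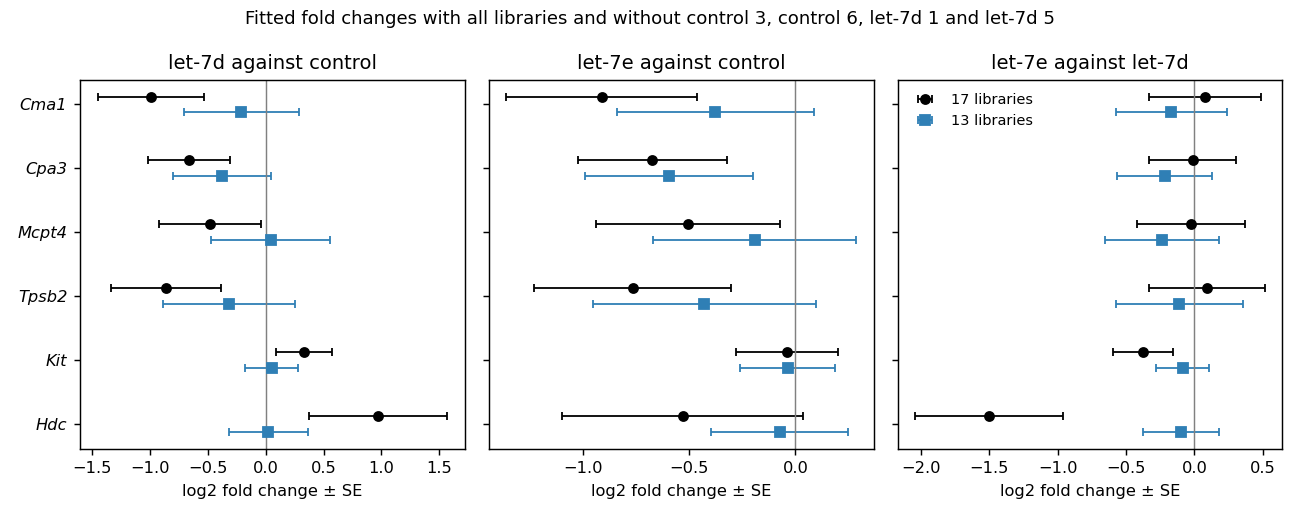
Fitted log2 fold changes (x axis, bars ± SE) are shown for each gene (y axis) in the 3 comparisons, with 17 libraries in black and with 13 in blue. With 13 libraries every protease value against the controls lies nearer 0, Mcpt4 with let-7d crosses to 0.04, and Hdc in let-7e against let-7d moves from -1.50 to -0.10.

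Of the 6 genes, Kit passed the test between the identifier series and the other 5 did not. Early libraries were higher by 0.79 on the log2 scale (SE 0.224, edgeR adjusted p = 0.0309), and the same test called 12.2% of all genes, here 1 of 6. Of the 4 early libraries, let-7d 1 (57.5 CPM) and let-7e 1 (37.6 CPM) lay above all late libraries, while let-7d 2 (23.4 CPM) and let-7e 2 (17.3 CPM) lay within the late range of 12.03 to 23.7 CPM. Without let-7d 1 the difference was 0.46 (adjusted p = 0.26), and without let-7e 1 it was 0.63 (adjusted p = 0.146). The call was also lost with limma voom (0.30, adjusted p = 0.293), with a replicate block (0.45, adjusted p = 0.614) and without the 4 libraries that stood apart (0.48, adjusted p = 0.156). At an unadjusted p under 0.05 edgeR called 2 of the 6, Kit and Hdc, and 24.7% of all genes. Hdc was at 1.31 (SE 0.543, adjusted p = 0.142), but at 0.19 without let-7d 1 and at 0.48 without the 4 libraries that stood apart. The proteases lay between 0.24 and 0.30, with adjusted p from 0.663 to 0.797. The early series holds no control, so the series difference comes from the injected groups.

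Hdc was highest in let-7d 1 and let-7d 5, where epithelial transcripts were highest. The summed epithelial level in let-7d 1 and let-7d 5 was 392 and 171 CPM, and in the other let-7d libraries it was at most 13.2 CPM. Across the 17 libraries the r of log2 CPM with Hdc was 0.863 for Cldn2, 0.829 for Foxj1, 0.798 for Cdh16 and 0.711 for Epcam. These r are a description over libraries that share depth and scaling. They include let-7d 1 and let-7d 5 and are not given without them. Control 3, with 100.2 CPM of these markers, had 2.43 CPM of Hdc, inside the range of the other controls. The genes most like Hdc were Catip (r = 0.960), Fndc7 (0.958) and the chemokine gene Ccl28 (0.957), which were looked up after the values of Hdc had been seen. Without the 4 libraries that stood apart these r were 0.652, 0.839 and 0.671. Ccl28 measured 84.2 CPM in let-7d 1, 16.0 CPM in let-7d 5 and at most 3.40 CPM in any other library. Lrp2, which encodes the endocytic receptor megalin and was also picked after its values were seen, measured 160.0 and 42.5 CPM in let-7d 1 and 5, and at most 8.80 CPM elsewhere. For Kit the r was 0.746 with Cldn2 and 0.452 with Foxj1. Those for the mean of the 4 proteases were between -0.237 and 0.096. The part of epithelial RNA in the levels of Hdc and Kit was not tested. Of the melanocyte list, 2 of 5 genes were measured, at 3.16 to 9.28 CPM in sum, and Dct had an r of -0.147 with Kit.

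**Figure D4:**
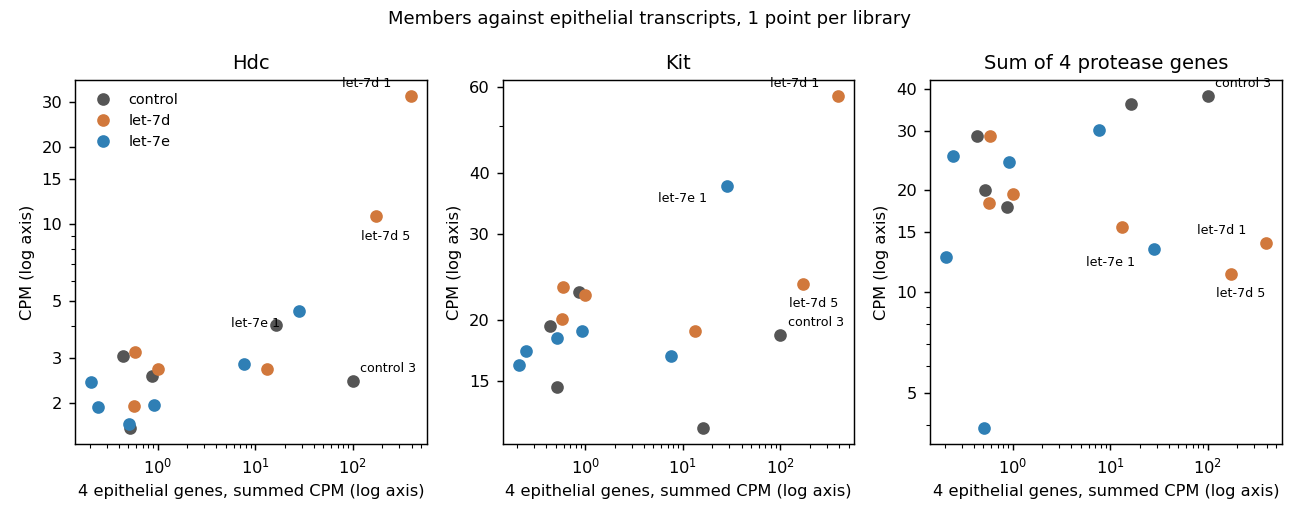
Each point is 1 library, with the summed CPM of Cdh16, Cldn2, Foxj1 and Epcam on a log x axis and the CPM of Hdc, Kit or the summed proteases on a log y axis. Hdc is highest in let-7d 1 and let-7d 5, where epithelial transcripts are highest (392 and 171 CPM). Control 3 (100.2 CPM, of which 86.5 CPM are Epcam) has 2.43 CPM of Hdc.

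Of the other mast cell genes listed, none was called in any of the 3 comparisons. Of 15 further granule genes, 10 were measured and 0 were called in either direction, with medians of -0.13 with let-7d and -0.05 with let-7e, against -0.04 over all genes in both. Lamp1, Lamp2, Cd63 and Srgn, the most abundant of them at 745, 274, 226 and 48.7 CPM, are lysosomal or granule components that many cells make, and their r with the protease mean lay between -0.257 and 0.198. A pair of low transcripts, singled out after their values were seen, tracked the proteases. Tpsab1, the sister tryptase gene (0.387 CPM on average), had an r of 0.853 with the protease mean, and Mrgprb1, a receptor of the Mas-related family (0.739 CPM), had 0.881. In let-7e 5 they had 0 and 2 reads. All other measured genes of the granule list and of the receptor list had an r between -0.359 and 0.381 with the protease mean. Among those were Slc18a2 (0.335), Gzmb (0.142), Il1rl1 (0.075) and Rab27b (0.008). Among 13256 other genes whose mean reached 1 CPM, without predicted genes and pseudogenes, the highest r with the protease mean was 0.817 and the median was 0.029. Tpsab1 and Mrgprb1 lie below 1 CPM, so their r were not set against genes of like level. The part of reads shared between Tpsab1 and Tpsb2 in the r of Tpsab1 was not tested.

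Of 12 genes for the IgE receptor and other mast cell receptors, 7 were measured and 0 were called. Fcer1a and Ms4a2, which encode the alpha and beta chains of the IgE receptor, are not among the genes of the table and are not analysed here. Fcer1g, whose common gamma chain macrophages share, averaged 20.9 CPM and had an r of -0.076 with the protease mean. The prostaglandin receptor gene Ptger3 (92.4 CPM) and the cytokine receptor gene Csf2rb (55.0 CPM) led the list, with r of -0.359 and -0.103.

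All 20 genes of signalling behind the IgE receptor and Kit were measured, and 0 were called. Their median was 0.11 with let-7d and 0.14 with let-7e. Kitl, the Kit ligand gene, averaged 60.1 CPM, with fitted changes of 0.00 with let-7d and 0.24 with let-7e (edgeR adjusted p = 0.994 and 0.545) and an r of 0.215 with Kit. Pik3r1 (199 CPM), Plcg1 (153), Grb2 (89.1) and Gab2 (76.0) were the most abundant.

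Genes that handle histamine and serotonin (6 of 11 measured), mast cell lipid mediator genes (7 of 7) and transcription factors of mast cells (8 of 9) had 0 called. Aoc3, an amine oxidase of the fat cell surface, was by far the most abundant of the first list at 2110 CPM, before Maob (82.7), Maoa (42.6) and Hnmt, which methylates histamine (32.9 CPM). Among lipid mediator genes, Ptgs1 and Pla2g4a were at 134 and 73.4 CPM in control 3 and at most 27.0 and 9.40 CPM in any other library. Gata2, a transcription factor gene of the mast cell lineage, was at 103 CPM in control 3 and at most 29.1 CPM elsewhere, and its r with the protease mean was 0.215. The values of these 3 genes were picked after they were seen, and the part of the smooth muscle and duct transcripts of control 3 in them was not tested.

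Markers of other blood cells had no called gene. Basophil markers (1 of 5 measured) totalled 0.694 to 1.99 CPM, eosinophil markers (2 of 8) 6.57 to 26.5 CPM and neutrophil markers (5 of 10) 11.3 to 35.9 CPM. Basophil genes Mcpt8 and Prss34 are not in the table. Macrophage markers (7 of 7) totalled 504 to 1411 CPM, and their r with the protease mean lay between -0.081 and 0.285. The r of T and B cell markers (8 of 8) with the protease mean lay between 0.139 and 0.441. Fibroblast markers (5 of 5) totalled 1206 to 1855 CPM, and their r with the protease mean lay between -0.405 (Lum) and 0.492 (Dcn). Adipocyte markers (5 of 5) totalled 16690 to 35230 CPM.

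Mesothelial markers, of the cell layer that covers the fat pad, varied alongside the proteases. All 5 of 5 were measured and had an r with the protease mean from 0.424 (Msln) to 0.662 (Wt1), with 0 genes called in any comparison. Their sum was lowest in let-7e 5 at 26.1 CPM, which was also lowest in the proteases, and highest in let-7e 4 at 295 CPM, the let-7e library with the most protease transcripts. It ran from 112 over 182 to 209 CPM in controls, from 54.0 over 97.9 to 278 CPM with let-7d and from 26.1 over 102 to 295 CPM with let-7e. Several libraries departed from this: let-7d 6 and let-7d 3 held 278 and 197 CPM of mesothelial transcripts with proteases of 19.5 and 15.6 CPM, and control 6 held 112 CPM with proteases of 36.2 CPM. An r in the range of the mesothelial markers was not theirs alone. Pla2g4a (0.539), Mmp9 (0.529) and Dcn (0.492), picked after their values were seen, also lay in it. The other measured genes of their 3 lists lay below it. The part of mesothelial transcripts in the protease levels was not tested.

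By pattern over the 17 libraries, the genes most like the mean of all 6 were Snhg17 (r = 0.823), Vmp1 (0.802), Pcgf1 (0.791), Sult1e1 (0.780), Inmt (0.764), Tuft1 (0.754), Errfi1 (0.753), Zfp953 (0.746), Mum1l1 (0.738) and Zfp772 (0.738). Those most like the mean of the 4 proteases, a mean taken after Kit and Hdc had been seen to differ, were Qtrt1 (0.817), Osr1 (0.774), Zfp772 (0.773) and Capn6 (0.772). These r are the highest of 13256 and are given as a description. The gene most like Kit was Zfp185 (0.899), with 0.738 in the late libraries alone.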

How the data were processed

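The measurements are read counts per gene from eWAT of the 3 groups. Per the submitters' processing notes, reads were aligned with STAR to GRCm38.p6; the STAR version and the counting tool are not given in the sources used here. The deposited counts are whole-number counts per Ensembl gene. By the name they were deposited under, they had passed the authors' CPM filter, with a threshold not given. A further deposited table, named RPKM by the authors, was not used here. Symbols came from GENCODE M21 (GRCm38) for 16438 genes; 14 had none.

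Counts were scaled with TMM and tested in R 4.3.3 with edgeR 4.0.16 (quasi-likelihood, two-sided, Benjamini-Hochberg over 16452 genes, threshold 0.05), with group and identifier series as terms. filterByExpr removed 0 genes, and the common biological coefficient of variation was 0.36. Log2 CPM has a prior count of 2. Totals of 12717365 to 28972306 counts per library set the counting precision. Correlations used 100000 permutations (numpy 2.4.6). The test scripts were tested on simulated data. The genes and lists were chosen with earlier results of these data known. Named genes were the 6 genes, the 10 most like their mean among genes of at least 1 CPM, and up to 4 of the most abundant genes of each list; others are said to be chosen after their values were seen. Levels per kb use the longest coding transcript. Alternatives were DESeq2 1.42.0 (test and size factors), limma 3.58.1 voom, a mean of at least 5 CPM, no filter of low genes, a threshold of 0.1, the replicate block, late libraries only, a fit of the 2 groups compared, a fit with no term for the series, CPM by library total, and each library left out. Added after seeing the data were those for the series difference and for the co-variation.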

Additional observations from a re-analysis of the deposited data

Results flagged for a closer look

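In each group of 5 or 6 libraries, the highest and lowest value of each of the 6 genes was compared with Dixon's 95% critical value for a sample far from the others. It was exceeded in 5 of 18 groups. The chance rate of about 1 in 20 holds for independent, normally distributed samples. Levels here were CPM without logarithm and the groups share libraries, so 5 of 18 cannot be read against that rate. Cpa3 in control 2, at 3.13 CPM, lay far below the other controls, which held 4.58 to 4.86 CPM. Mcpt4 in let-7d 2, at 8.71 CPM, lay above the other let-7d libraries. Kit in let-7d 1 (57.5 CPM) and in let-7e 1 (37.6 CPM) and Hdc in let-7d 1 (31.6 CPM) lay far above the rest of their groups. Epithelial markers were at 392 CPM in let-7d 1 and at 28.3 CPM in let-7e 1, and their part was not tested.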

How the results depend on the processing

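DESeq2 called 10 genes in let-7d against control, 15 in let-7e against control and 14 in let-7e against let-7d, where edgeR called 0 in each (1676, 1729 and 1097 genes at an unadjusted p under 0.05) and limma voom 0; DESeq2 gave no adjusted p to 617, 617 and 4237 genes. None of the other alternatives, each library left out included, called a gene, so those counts ran from 0 to 0. The median of the 6 genes with let-7d was -0.093 without control 3, control 6, let-7d 1 and let-7d 5, and -0.68 to -0.42 with each library left out in turn; with let-7e it ran from -0.91 to -0.47, and in let-7e against let-7d from -0.28 to 0.17.

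The early difference of Kit was 0.30 with limma voom (adjusted p = 0.293), 0.45 with the replicate block (adjusted p = 0.614), 0.48 without the 4 libraries (adjusted p = 0.156), and 0.46 to 0.99 with each library left out; the call was lost without let-7d 1, 3 or 4 or let-7e 1 or 6. That of Mcpt4 then ran from -0.058 to 0.48 and that of Tpsb2 from -0.023 to 0.46, both below 0 without let-7d 2. Of the same-numbered pairs of libraries, 6 of 16 correlated over 0.1 (range -0.33 to 0.496, the highest for let-7d 1 with let-7e 1). Pairs with unlike numbers were not compared, so these values cannot show whether replicate numbers stand for pairs. The replicate block turned let-7e against let-7d to -0.066 for Cma1 and -0.12 for Tpsb2. These turned to -0.15 and -0.14 with limma voom, and to -0.17 and -0.11 without the 4 libraries. Cpa3 and Mcpt4 turned to 0.045 and 0.049 in late libraries only. With each library left out, Cma1 ran from -0.086 to 0.29, Cpa3 from -0.26 to 0.17, Mcpt4 from -0.30 to 0.19 and Tpsb2 from -0.20 to 0.31. Mcpt4 in let-7d against control was 0.044 without the 4 libraries, and -0.60 to -0.22 with each left out. Hdc in let-7d against control was 0.39 without let-7d 5, and its early difference 0.19 without let-7d 1.

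Pairs with Hdc turned positive in late libraries only (r = 0.018 for Cma1, 0.132 for Mcpt4, 0.111 for Tpsb2) and without the 4 libraries (0.292 for Cma1, 0.170 for Cpa3, 0.249 for Mcpt4, 0.290 for Tpsb2), and for Tpsb2 at 0.026 with CPM by library total. With a mean of at least 5 CPM, Cma1, Cpa3 and Hdc were not tested. The cause of these changes was not tested. Counts of 18 to 365 reads limit the protease values.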
